A study of Mus musculus with 8 samples.

Results

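The genes examined here are 44 mouse genes of DNA replication and its checkpoint, chosen by name, out of 21951 protein-coding genes in the GENCODE M21 annotation of mm10. All 44 were found in that annotation. A DRIP-seq peak was counted for a gene when it shared at least 1 bp with the annotated gene extended by 1 kb at either end, and such a peak is called a gene peak. The measurements come from Rtel1F/F;WT RNH1-GFP MEFs, mouse embryonic fibroblasts that carry floxed Rtel1, encoding a helicase, and that overexpress a GFP fusion of wild-type RNase H1, an enzyme that degrades the RNA of RNA:DNA hybrids, when doxycycline is present. Every culture was infected with an adenovirus. Ad-GFP served as the control and left Rtel1 in place, and Ad-Cre was used to delete Rtel1. After 48 h, doxycycline (DOX) at 2 μg/ml or a mock treatment was applied, and cells were collected 48 h later. The 4 conditions are GFP mock with its doxycycline counterpart GFP DOX, then Cre mock with its counterpart Cre DOX. Where 4 values are listed without names, they stand in this library order. Each condition is 1 DRIP library, made from 3 parallel immunoprecipitations with the S9.6 antibody. There was therefore no replicate, no value below carries a replicate error, and no difference between conditions could be tested. Every comparison describes these 4 libraries only.

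DNA replication starts when the origin recognition complex, CDC6 and CDT1 load the MCM2-7 helicase onto DNA, and the helicase is switched on when CDC45 and the GINS complex join it. DNA polymerases with primase, the PCNA clamp and its RFC loader, the single-strand binding protein RPA, and enzymes of Okazaki fragment processing then copy the DNA, while Timeless, Claspin and the ATR, ATM, CHK1 and CHK2 kinases guard the fork. R-loops, in which RNA pairs with the template strand and displaces the other strand, are known to form in transcribed genes and can stand in the way of the replication machinery, and the displaced strand can fold into G-quadruplexes (G4s) where it is rich in guanine.

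The 4 deposited lists held 87613, 60219, 91097 and 105081 peaks, and covered between 32.1 Mb (GFP DOX) and 89 Mb (Cre DOX). The median peak width ran from 295 bp in GFP mock to 513 bp in Cre DOX. The read depth behind the lists is unknown, so a gene without a peak is only a gene in which no peak was called. Rtel1 itself had no peak in either GFP list, 2 in Cre mock and 1 in Cre DOX, and Rnaseh1 had none in any list; neither value checks the genotype or the transgene, since a peak list does not measure copy number or expression. Of 10 fibroblast marker genes, 5, 4, 4 and 4 had a peak within 1 kb of a start site, in library order, with Fn1, Vim and Col1a1 in all 4 lists, while Col3a1 and Dcn had no gene peak in any. A gene peak was present in 6, 5, 6 and 6 of the 10. Of 3 blood markers, 3, 3, 3 and 2 had a gene peak, and Cd68 had a promoter peak in all 4 lists, so peaks at marker genes do not check the cell type. In a bulk library, a hybrid present in few cells and a weak hybrid present in many cells cannot be told apart.

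Most of the 44 genes held a gene peak, and in the lists as deposited more of them did so in the Cre libraries. In Ad-GFP cells the number was 29 with mock and 27 with DOX, and in Ad-Cre cells it was 37 with mock and 36 with DOX. Over all protein-coding genes, the share with a gene peak was 55.0%, 46.0%, 60.4% and 54.1% in the same order, against 65.9%, 61.4%, 84.1% and 81.8% of the 44. With each list cut to the length of the shortest, 32 genes in Cre mock stood against 21 in GFP mock, but 28 in Cre DOX against 27 in GFP DOX. The excess over all genes was not present at every gene length: of the 11 genes of 40 kb or longer, 7, 8, 10 and 9 held a gene peak, against 82.6%, 69.1%, 85.9% and 80.6% of all genes of that length. A peak within 1 kb of any annotated start site of the gene, called a promoter peak, was found in 17, 18, 25 and 24 genes, against 30.8%, 25.8%, 36.7% and 27.6% of all genes. With lists of equal length the counts were 10, 18, 20 and 16, so that Cre DOX then stood below GFP DOX. Many of these start sites lie inside the gene. When only the gene start, the 5′-most start site, was counted, the number was 10, 11, 17 and 17 genes, against 23.3%, 19.6%, 28.0% and 20.1% of all genes. By this count the 44 genes stood close to the background in GFP mock and above it in both Cre libraries.

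**Figure D1:**
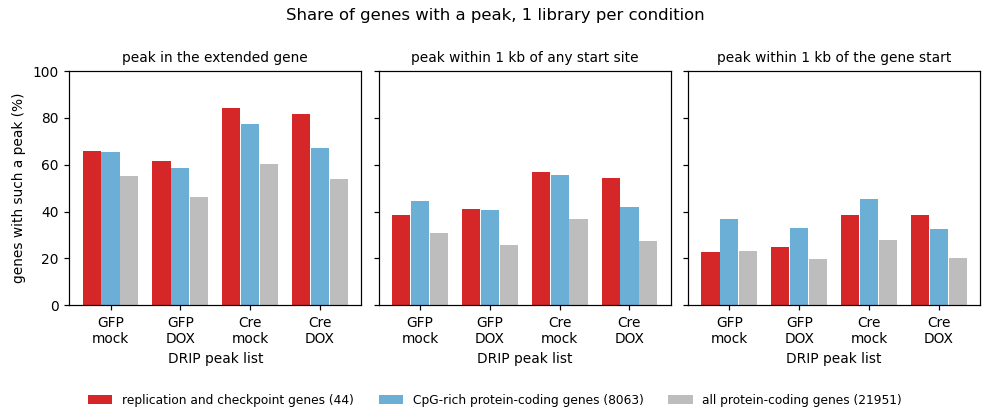
Share of genes with a peak (y axis, percent) in each of the 4 DRIP peak lists (x axis), for a peak in the extended gene, near any start site and near the gene start; bars are the 44 replication and checkpoint genes (red), 8063 CpG-rich protein-coding genes (blue) and all 21951 protein-coding genes (grey), with no error bars because each condition is 1 library. The red bars for any gene peak are 65.9%, 61.4%, 84.1% and 81.8%, all above the grey bars.

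The ratio of observed to expected CpG in the 2 kb around the gene start had a median of 0.62 in the 44 genes and 0.475 in all genes, and a closer background is therefore the 8063 protein-coding genes of 3 to 100 kb whose ratio was 0.5 or more. This set was chosen after the values were seen, and it holds 35 of the 44. Among these genes, the share with a gene peak was 65.4%, 58.6%, 77.3% and 67.2%. The 44 genes were thus level with CpG-rich genes in GFP mock, at 65.9%, and above them in Cre DOX, at 81.8%. For peaks within 1 kb of the gene start, CpG-rich genes reached 36.6%, 32.9%, 45.3% and 32.6%, above the 44 genes in the first 3 lists.

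The number of peaks also differed between the libraries. Over the 1746 kb that the 44 extended genes span, 70 peaks were counted with mock and 68 with DOX in Ad-GFP cells, and 139 with mock and 124 with DOX in Ad-Cre cells. This is 4.01, 3.9, 7.96 and 7.1 peaks per 100 kb, against 3.29, 2.53, 4.3 and 3.51 over all extended protein-coding genes. The density in the 44 genes was 1.22 times that of all genes in GFP mock and 1.54, 1.85 and 2.03 times in the other 3 lists. The CpG-rich genes held 4.86, 4.5, 7.97 and 5.39 peaks per 100 kb, so against them the 44 genes were lower in the GFP lists, level in Cre mock and higher in Cre DOX. These densities follow the lists as deposited. With equal numbers of peaks per list the 44 genes held 37, 68, 86 and 60 peaks, and Cre DOX fell below GFP DOX. The median number of peaks per gene was 1, 1, 2 and 2. The peaks were mostly weak by the peak caller's score, which is 10 times the −log10 q-value rounded down, as were those of the lists as a whole. The median score was 16, 15, 19 and 16, against 18, 17, 19 and 18 over each full list. The highest score was 36, 34, 47 and 51. A peak in the top decile of its own list by score was present in 3, 4, 6 and 7 of the 44 genes, against 13.1%, 9.92%, 16.7% and 9.91% of all genes. These counts are small, and those of GFP DOX and Cre mock were near the background.

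**Figure D2:**
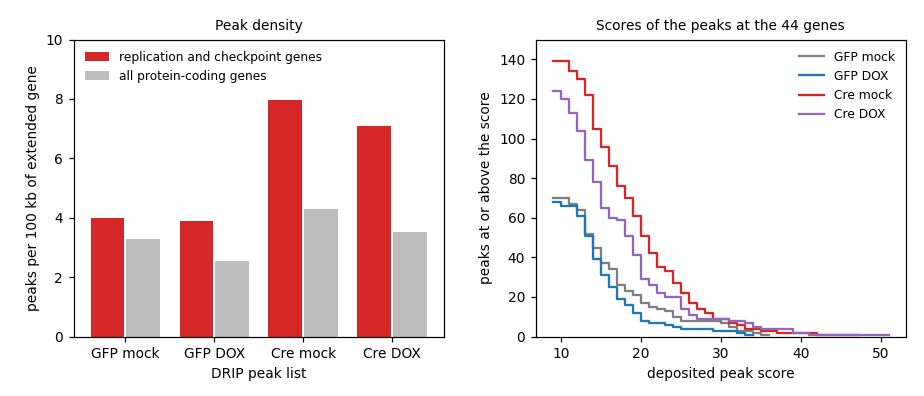
Left, peaks per 100 kb of extended gene (y axis) in each DRIP peak list (x axis) for the 44 replication and checkpoint genes (red) and all protein-coding genes (grey). Right, the number of peaks at the 44 genes (y axis) at or above a given deposited score (x axis), 1 line per list; the Cre mock line starts at 139 peaks and the GFP DOX line at 68, and few peaks of any list exceed a score of 40.

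The genes differed in how many lists held a peak for them. A gene peak was present in all 4 lists for 22 genes (33.5% of all genes): Orc5, Cdc6, Cdt1, Mcm2, Mcm3, Mcm6, Mcm7, Gins2, Pola1, Prim1, Prim2, Pold1, Pole, Rfc1, Rfc2, Rfc5, Rpa1, Fen1, Lig1, Timeless, Atm and Ccne1. These peaks were not always at the same place. A site joined from overlapping peaks of all 4 lists was found for Cdc6, Cdt1, Mcm2, Mcm7, Pola1, Prim2, Pold1, Rfc1, Timeless, Atm and Ccne1 alone. Peaks joined in this way need not all overlap each other, here and in the sites given below. At Ccne1, for example, the GFP mock peak (chr7:38106740-38107049) and the Cre DOX peak (chr7:38107362-38107858) of the joined site shared no base. No list held a peak for Rfc3, Rpa3 and Atr (26.1% of all genes). Rfc3 and Rpa3 are short, at 8.49 kb and 3.24 kb, but Atr spans 94.2 kb. A gene peak in Cre mock alone was found for Orc2, Mcm4 and Pcna (5.04% of all genes), and in Cre DOX alone for Orc6, Rfc4 and Chek1 (3.58%). No gene had a peak in GFP mock alone or in GFP DOX alone, patterns that are also rare over all genes (3.87% and 1.10%).

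**Figure D3:**
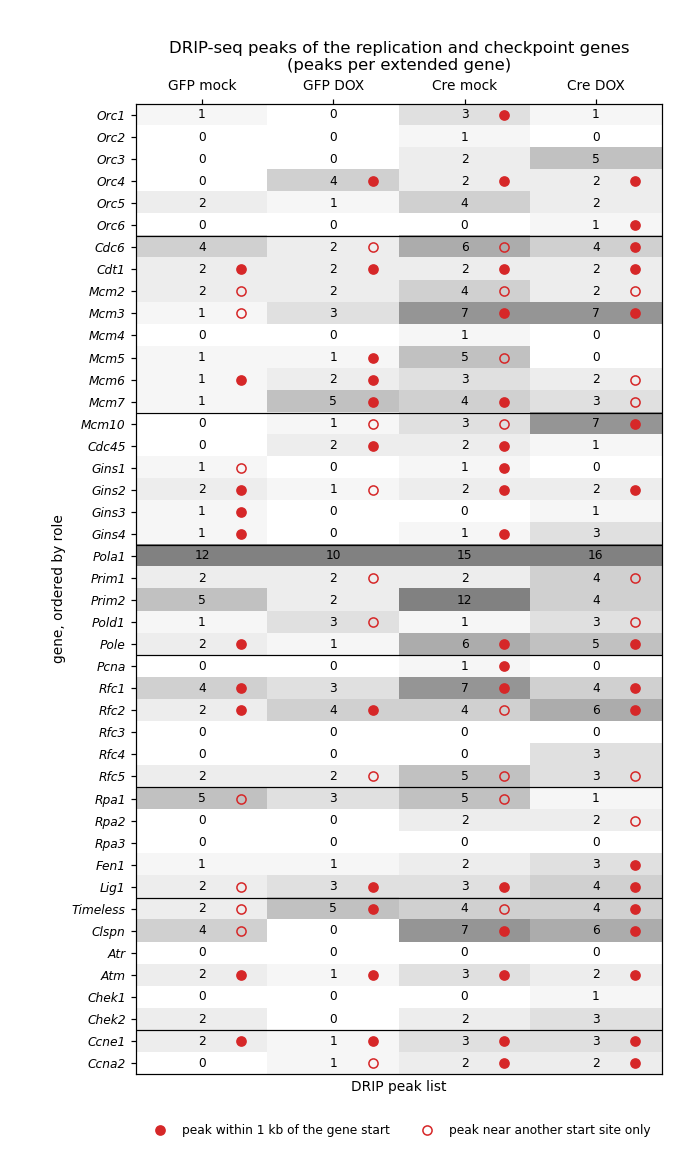
Number of gene peaks in each of the 4 DRIP peak lists (columns) for the 44 genes (rows, ordered by role, with lines between roles); darker cells hold more peaks, with shading capped at 8. Filled red circles mark a peak within 1 kb of the gene start and open circles a peak near another start site only; Pola1, with 12, 10, 15 and 16 peaks, has the most.

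The origin recognition complex, which marks where replication can begin, gave few peaks in the GFP libraries. Its 6 genes held 3 and 5 peaks in the mock and DOX libraries of Ad-GFP cells and 12 and 11 in those of Ad-Cre cells. Orc1, the largest subunit and an ATPase, had 1, 0, 3 and 1 peaks in library order, and all 3 Cre mock peaks (scores 14 to 19) lay near a start site, 1 of them at -0.33 kb from the gene start, on the side shared with Prpf38a. Orc2 had a single intronic peak in Cre mock, 10.88 kb into the gene. Orc3 had 0, 0, 2 and 5 peaks, all inside or at the end of the gene and none near a start site. Orc4 had 0, 4, 2 and 2 peaks, with the start itself covered in both Cre lists (scores 20 and 13) and a peak ending short of it in GFP DOX (score 15). These start peaks also overlapped Mbd5 and cannot be assigned to either gene. DNA was cut with restriction enzymes before immunoprecipitation, and the fragment holding the Orc4 start is 1487 bp. Here and below, peak edges within a fragment cannot place a hybrid at or beside a start. Orc5 had 2, 1, 4 and 2 peaks, of which an intronic peak 58.9 to 59 kb from the start recurred in every list but GFP mock, with scores of 21, 21 and 25. Orc6 had 1 peak, in Cre DOX, over the start that it shares head to head with Vps35 (chr8:85299176-85300374, score 18). GFP mock was the only list with no promoter peak at any of the 6 genes.

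The helicase loading genes held 12, 17, 32 and 20 peaks over 8 genes. Cdt1, which brings the MCM complex to the origin, was the gene most fully covered by peaks. Its widest peak was 2953 bp with a score of 24 in GFP mock and 3415 bp with a score of 24 in GFP DOX. In Cre mock it was 5544 bp with a score of 33 (chr8:122566966-122572509), and Cre DOX held 2 wide peaks of 2583 bp and 2671 bp with scores of 33 and 34. The annotated gene is 5.54 kb long, so the Cre mock peak alone was as long as the gene, which it overlapped from upstream of the start. The gene start lay under a peak in Cre mock and Cre DOX, whereas in GFP mock the first peak began inside the gene and in GFP DOX the gene start fell between an upstream peak and an internal one. The restriction fragment holding this start is 5420 bp, so these differences in peak edges cannot place a hybrid at the start. Cdt1 and Gins2 also lie inside an overlapping annotated gene, Gm20388, which cannot be separated from them in these lists.

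Cdc6, the ATPase that loads MCM with CDT1, had 4, 2, 6 and 4 peaks, and an internal site about 3 kb from the start (chr11:98910552-98911235) was shared by all 4 lists with scores of 13, 18, 11 and 19. Mcm2 had 2, 2, 4 and 2 peaks, all more than 6 kb from the gene start, with a union site of 6913 bp toward the gene end present in all lists. Mcm3 had 1, 3, 7 and 7 peaks. In Cre mock its peaks ran from the start (chr1:20820222-20820646, score 25), and in Cre DOX from just upstream of it (score 20), to the second annotated set of start sites 13 to 15 kb downstream, whereas in GFP mock the lone peak lay 13.78 kb from the start. Mcm4, which shares a head-to-head promoter with Prkdc, had 1 peak, in Cre mock, 6.27 kb into the gene. Mcm5 had 1, 1, 5 and 0 peaks, so that its Cre mock peaks outnumbered those of each other library, and no peak was called in Cre DOX. Mcm6 had 1, 2, 3 and 2 peaks; a peak lay within 1 kb of its start in both GFP libraries (scores 32 and 13), covering the start itself in GFP DOX, and in neither Cre library. Mcm7 had 1, 5, 4 and 3 peaks, with 1 site of 4097 bp in the 3′ part of the gene present in all lists and peaks within 1 kb of the start in GFP DOX (score 13) and Cre mock (score 24) alone.

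The 300-base windows around the start sites of these genes, given by RefSeq for GRCm38.p6 as 250 bases before and 50 after each start, were searched for sequence words that the choice of genes by name did not use directly. E2F factors control many genes of S phase. The 2 E2F-type words TTTCCCGC and TTTGGCGC, searched on both strands, were present in 12 of 43 windows of the 36 genes that have an entry (27.9%), against 1.56% of 32851 windows of all genes. TTTCCCGC was found in 18.6% of the windows against 1.07%, and TTTGGCGC in 11.6% against 0.514%. Most windows of these genes thus held neither word. The NF-Y word CCAAT stood in 58.1% against 37.4%, and the word TTTGAA, part of the CHR element, in 9.3% against 17.9%. The windows with an E2F-type word belong to Orc3, Cdc6, Cdt1, Mcm3, Mcm5, Mcm6, Mcm7, Gins3, Pola1, Pold1, Rfc3 and Chek2. They held 14 matches, of which 7 lay under a DRIP peak of at least 1 list. These 7 are shown because they are the places where the promoter word and the peaks coincide; each line gives the gene, its position on GRCm38.p6 and the bases 5′ to 3′ on the strand of the gene, with the word, or its reverse complement, in capitals.
Mcm3, chr1:20820263-20820282, minus strand: tgggaagtTTTGGCGCcaag
Mcm3, chr1:20820278-20820301, minus strand: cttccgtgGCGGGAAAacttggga
Mcm5, chr8:75109352-75109375, plus strand: gaactttcGCGCCAAAacgtccag
Mcm6, chr1:128359737-128359760, minus strand: tggacgggTTTGGCGCgaagtagc
Mcm6, chr1:128359800-128359823, minus strand: cgtatgctTTTGGCGCgaaaagtg
Mcm7, chr5:138172033-138172056, minus strand: ttcgaaccGCGGGAAAcagggtgt
Cdt1, chr8:122568039-122568062, plus strand: actaccttTTTGGCGCcatggcgc

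Of these 7 matches, the 2 in Mcm3 and the 1 in Mcm7 lay under a Cre mock peak, the 1 in Cdt1 under a Cre mock and a Cre DOX peak, and the 1 in Mcm5 and both in Mcm6 under a GFP DOX peak. None lay under a GFP mock peak. The other 7 matches, in Orc3, Cdc6, Gins3, Pola1, Pold1, Rfc3 and Chek2, lay under no peak. A match is a description of letters and not a bound site.

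Helicase activation genes, whose products turn the loaded MCM ring into the working helicase, held 5, 4, 9 and 14 peaks over 6 genes. Mcm10, which is needed for origin firing, had 0, 1, 3 and 7 peaks, the largest number in Cre DOX among these genes, and 1 Cre DOX peak (chr2:5013008-5013321, score 12) lay just upstream of the gene start. Cdc45 had 0, 2, 2 and 1 peaks, with a peak within 1 kb of the start in GFP DOX (score 14) and over the start in Cre mock (score 14). The 4 GINS genes held few peaks each. Gins1 had 1, 0, 1 and 0 peaks, the first an entirely repeat-masked peak of 106 bp with a score of 34 and the second at -0.76 kb from the start. Gins2 had 2, 1, 2 and 2 peaks, all within 5 kb of its start. Gins3 had 1, 0, 0 and 1 peaks and was the only gene of the 44 with fewer peaks in Cre mock than in GFP mock. Gins4 had 1, 0, 1 and 3 peaks, within 1 kb upstream of the start in both mock libraries and inside the gene in Cre DOX.

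Polymerase and primase genes all had a gene peak in every list, with 22, 18, 36 and 32 peaks over 5 genes. Pola1, the catalytic subunit of DNA polymerase alpha and the longest gene of the set at 327 kb, accounted for 12, 10, 15 and 16 of them. All its peaks were intronic, and 5 intronic sites recurred in all 4 lists, among them chrX:93352398-93352953 with scores of 24, 19, 20 and 51. The last value, from Cre DOX, was the highest of the whole gene set. Prim2, the large primase subunit, spans 216 kb and had 5, 2, 12 and 4 peaks, all intronic. Of its 12 Cre mock peaks, 5 had the shortest width in that list, 132 bp. Prim1, the small primase subunit, had 2, 2, 2 and 4 peaks, with top-decile peaks in Cre mock (score 35) and Cre DOX (score 41) at different positions 1.72 and 4.3 kb from the start. Pold1, the catalytic subunit of polymerase delta, had 1, 3, 1 and 3 peaks, with a site 7 to 10 kb from the start in all lists (scores 20, 17, 18 and 20). Pole, the catalytic subunit of polymerase epsilon, had 2, 1, 6 and 5 peaks, and the promoter it shares head to head with Pxmp2 carried a peak within 1 kb of the start in every list but GFP DOX, with scores of 18, 31 and 18.

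The clamp and clamp loader genes held 8, 9, 17 and 16 peaks. Pcna, the sliding clamp, had 1 peak, in Cre mock, of 323 bp and score 14, 0.85 kb into the gene (chr2:132252302-132252624). Rfc1 had 4, 3, 7 and 4 peaks, including the highest score of the Cre mock list in these genes, 47, in an intron near the gene end (chr5:65265621-65265938). Rfc2 had 2, 4, 4 and 6 peaks, and the promoter peaks of the Cre mock list lay at internal start sites more than 11 kb from the gene start. Rfc4 had 0, 0, 0 and 3 peaks, none near a start site. Rfc5 had 2, 2, 5 and 3 peaks, spread over its 10.9 kb from 4.56 kb after the start to its end, where it meets Wsb2. Rfc3 had none.

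Single-strand binding and Okazaki processing genes held 8, 7, 12 and 10 peaks. Rpa1, the large RPA subunit, had 5, 3, 5 and 1 peaks and top-decile peaks in the GFP libraries alone (score 35 in GFP mock and 32 in GFP DOX). Rpa2 had 0, 0, 2 and 2 peaks and Rpa3 none. Fen1, the flap nuclease, had 1, 1, 2 and 3 peaks, with a peak at its 3′ end in every list but GFP mock whose scores were 15, 24 and 39, and a peak at the start it shares with Tmem258 in Cre DOX. Lig1, the ligase that seals Okazaki fragments, had 2, 3, 3 and 4 peaks. Its gene start lay under no peak, though within 1 kb of one in every list but GFP mock, and its strongest peak was in GFP DOX at an internal start site (chr7:13278637-13278796, score 34). The peaks near the gene start and this strongest peak also overlapped Zswim9 and cannot be assigned to either gene.

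Fork protection and checkpoint genes held 10, 6, 16 and 16 peaks. Timeless had 2, 5, 4 and 4 peaks, with a site of 3700 bp at internal start sites about 10 kb from the gene start in all lists and scores of 25, 25, 19 and 21. Clspn, encoding Claspin, had 4, 0, 7 and 6 peaks, so that the list without any was GFP DOX. Atm had 2, 1, 3 and 2 peaks. The promoter that it shares head to head with Npat carried a peak in every list (chr9:53536375-53537789 as the union), with scores of 13, 14, 28 and 18. The peak was 405, 662, 1415 and 473 bp wide, so it was both highest and widest in Cre mock. Chek1 had 1 peak, in Cre DOX, and Chek2 had 2, 0, 2 and 3, most of them in repeat-masked introns. Atr had none. The cyclin genes held 2, 2, 5 and 5 peaks. Ccne1, the S-phase cyclin E1, had 2, 1, 3 and 3 peaks, with 1 or more within 1 kb of the gene start in every list and the highest score, 33, in GFP DOX. The start itself was covered in Cre mock and Cre DOX (scores 22 and 18), but its restriction fragment is 6230 bp, so peak edges cannot place a hybrid there. Ccna2, cyclin A2, had 0, 1, 2 and 2 peaks. A peak lay over its gene start in Cre mock (score 22) and just upstream of it in Cre DOX (score 20), and none lay within 1 kb of it in either GFP library.

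**Figure D4:**
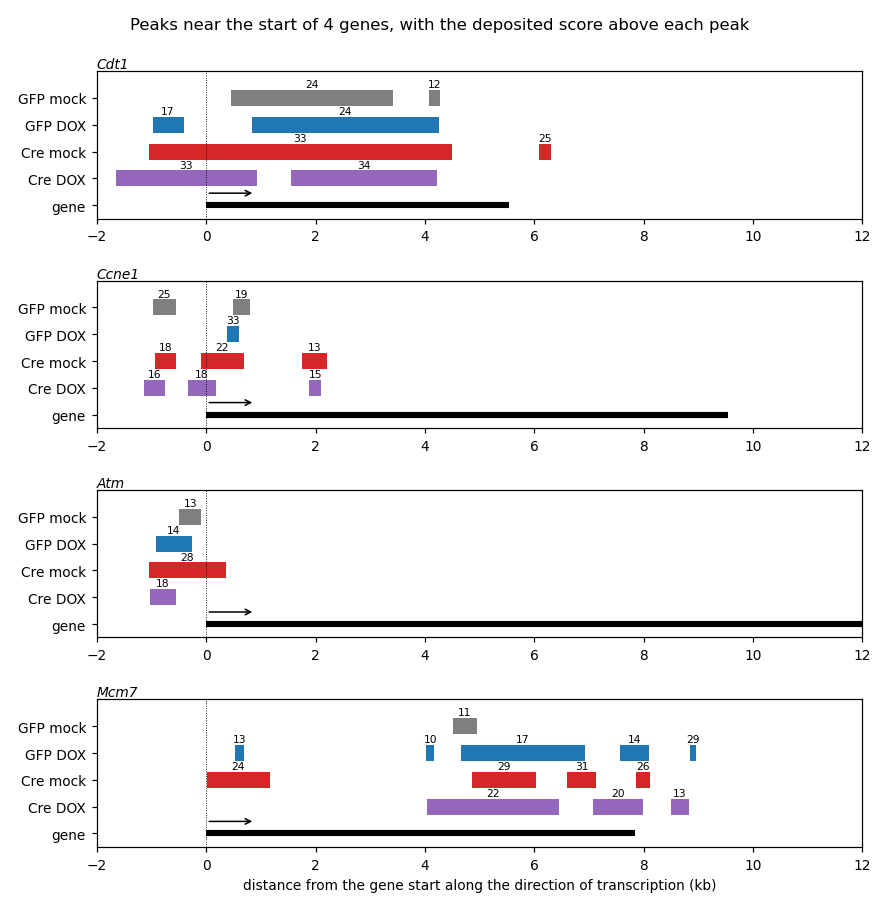
Peaks of the 4 DRIP peak lists (rows, bars with the deposited score above them) by distance from the gene start in kb along the direction of transcription (x axis, cut at 12 kb), for Cdt1, Ccne1, Atm and Mcm7; the black bar is the annotated gene. Cdt1 is covered over most of its length in every list, and Atm has a peak within 1 kb of its start in every list, widest in Cre mock at 1415 bp.

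A promoter peak in all 4 lists was found for Cdt1, Gins2, Rfc2, Lig1, Timeless, Atm and Ccne1, 7 of the 44 genes against 13.5% of all genes. With the gene start alone, Cdt1, Atm and Ccne1 remained, 3 genes against 8.87%. The sequences upstream of the start sites at Cdt1, Lig1 and Ccne1, 3 of the 4 highest-scoring of the 7, up to 250 bases cut to the longest stretch free of annotated exons, are shown because they are the DNA next to strong promoter peaks. They were read from GRCm38.p6, 5′ to 3′ on the strand of the gene, and capitals mark bases in a 25-base window with a G4Hunter score of 1.5 or more in size, a prediction of a G4. All 3 start sites lie downstream of the 5′-most start of their gene. Each was picked, among start sites with a long enough stretch, as the one whose stretch overlapped peaks of the most lists. The number of lists over each stretch is thus set by this choice and is not a result.
Cdt1, chr8:122571542-122571695, plus strand: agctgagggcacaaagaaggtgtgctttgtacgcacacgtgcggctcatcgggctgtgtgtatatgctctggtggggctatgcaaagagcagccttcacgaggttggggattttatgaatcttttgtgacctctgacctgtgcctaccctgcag
Lig1, chr7:13278722-13278825, plus strand: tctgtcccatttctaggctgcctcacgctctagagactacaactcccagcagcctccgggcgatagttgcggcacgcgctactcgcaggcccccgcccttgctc
Ccne1, chr7:38106909-38107158, minus strand: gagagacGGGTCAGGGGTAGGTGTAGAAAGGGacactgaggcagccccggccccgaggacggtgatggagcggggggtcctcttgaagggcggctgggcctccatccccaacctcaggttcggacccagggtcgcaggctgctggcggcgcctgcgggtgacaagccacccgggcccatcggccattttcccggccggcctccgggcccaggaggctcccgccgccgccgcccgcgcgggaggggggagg

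The Ccne1 stretch overlapped a peak in all but Cre DOX, and its highest G4Hunter score was 1.56, with the guanines on the coding strand. The Cdt1 stretch overlapped a peak in all but GFP mock, and the Lig1 stretch in the 2 GFP libraries. Neither of these reached the G4 threshold, the largest scores in size being 0.96 for Cdt1 and -1.08 for Lig1.

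Loss of Rtel1 was examined by setting Cre mock against GFP mock. More gene peaks were present in Cre mock for 29 of the 44 genes, against 36.4% of all genes, fewer for 1, Gins3, against 19.8%, and equal numbers for 14. The largest differences were in Prim2 (5 in GFP mock and 12 in Cre mock), Mcm3 (1 and 7), Mcm5 (1 and 5) and Pole (2 and 6). The median difference was 1.5 peaks per gene, against 0 over all protein-coding genes and 1 over the CpG-rich genes. The total number of peaks was 1.99 times as high in Cre mock, against 1.31 over all genes and 1.64 over the CpG-rich genes, of which 52.2% had more and 17.6% fewer. A gene peak present in Cre mock and absent in GFP mock was found for Orc2, Orc3, Orc4, Mcm4, Mcm10, Cdc45, Pcna, Rpa2 and Ccna2, 9 genes against 13.6% of all genes, and the reverse for Gins3, against 8.22%. A promoter peak present in Cre mock and absent in GFP mock was found for 10 genes, Orc1, Orc4, Cdc6, Mcm5, Mcm7, Mcm10, Cdc45, Pcna, Rfc5 and Ccna2, against 13.7%, and the reverse for Mcm6 and Gins3, against 7.83%. In Cdc6, Mcm5, Mcm10 and Rfc5 these Cre mock peaks lay at internal start sites, and in Orc1, Orc4, Mcm7, Cdc45, Pcna and Ccna2 within 1 kb of the gene start.

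Overexpression of RNase H1 was examined by setting DOX against mock within each virus. In Ad-GFP cells, 11 genes had more gene peaks with DOX, against 17.6% of all genes, and 16 had fewer, against 32.7%. The total was nearly equal, 68 against 70 peaks, a ratio of 0.971, where all genes had 0.77. The CpG-rich genes had 0.927, with 25.7% higher and 33.5% lower, so the 44 genes were close to them. Orc4 (0 to 4), Mcm7 (1 to 5) and Timeless (2 to 5) had the largest increases with DOX, and Clspn (4 to 0), Prim2 (5 to 2) and Rpa1 (5 to 3) stood lower. A gene peak was present only with DOX for Orc4, Mcm10, Cdc45 and Ccna2, 4 genes against 6.92%, and only with mock for 6, Orc1, Gins1, Gins3, Gins4, Clspn and Chek2, against 15.9%. Promoter peaks changed place more than their totals show, being present only with DOX in 10 genes, against 7.26%, and only with mock in 9, against 12.2%. In Ad-Cre cells, 14 genes had more gene peaks with DOX, against 19.9%, and 19 had fewer, against 36.0%. The ratio of totals was 0.892, against 0.816 over all genes and 0.676 over the CpG-rich genes, of which 49.7% had fewer peaks with DOX. Measured by covered bases, the direction was the opposite within each virus, since the peaks of the 44 genes covered 25.8 kb with mock and 37.9 kb with DOX in Ad-GFP cells, and 77.3 kb and 90.8 kb in Ad-Cre cells. The genes with fewer peaks included Prim2 (12 to 4), Mcm5 (5 to 0), Rpa1 (5 to 1) and Rfc1 (7 to 4), and those with more included Mcm10 (3 to 7), Orc3 (2 to 5) and Rfc4 (0 to 3). A gene peak was absent with DOX for Orc2, Mcm4, Mcm5, Gins1 and Pcna, 5 genes against 13.9%, and appeared for Orc6, Gins3, Rfc4 and Chek1, 4 genes against 7.62%. A promoter peak was present only with DOX in 6 genes, against 6.04%, and only with mock in 7, against 15.1%.

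The pattern of a peak in Cre mock that was absent in both GFP mock and Cre DOX was found for the gene peaks of Orc2, Mcm4 and Pcna, 3 genes against 6.56% of all genes, and for the promoter peaks of Orc1, Mcm5, Cdc45 and Pcna, 4 genes against 8.50%. Both counts were near the background. The peaks of Orc2, Mcm4 and Pcna were 250, 132 and 323 bp wide and scored 19, 22 and 14.

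With DOX in both arms, Cre DOX had more gene peaks than GFP DOX for 27 genes, against 33.2% of all genes, and fewer for 6, Orc4, Mcm5, Mcm7, Cdc45, Rpa1 and Timeless, against 16.9%. The total was 1.82 times as high, against 1.38 over all genes and 1.2 over the CpG-rich genes. A gene peak was present in Cre DOX and absent in GFP DOX for 10 genes, Orc1, Orc3, Orc6, Gins3, Gins4, Rfc4, Rpa2, Clspn, Chek1 and Chek2, against 15.2%, and the reverse held for Mcm5 alone, against 7.02%. The comparisons share libraries, so their values are not independent of each other.

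The lists differ in length, and the counts were repeated after cutting each list to its 60219 top peaks by score, the length of the shortest. Between Cre mock and GFP mock, 27 genes had more and 1 had fewer, against 30.2% and 18.6% of all genes, and the ratio of totals was 2.32 against 1.25. Between GFP DOX and GFP mock the direction turned, with 18 genes higher and 7 lower, against 25.4% and 20.7%, and the ratio was 1.84 against 1.15. Between Cre DOX and Cre mock, 8 genes were higher and 21 lower, against 12.4% and 35.4%, and the ratio was 0.698 against 0.653. Between Cre DOX and GFP DOX the excess was no longer present, with 10 genes higher and 11 lower, against 13.4% and 30.0%, and the ratio was 0.882 against 0.708 over all genes. With lists of equal length, the comparisons of Cre mock with GFP mock and of Cre DOX with Cre mock thus kept their direction, and the other 2 did not. Among top-decile peaks alone, however, Cre DOX had more peaks than Cre mock in 6 genes and fewer in 3, a ratio of 1.5.

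**Figure D5:**
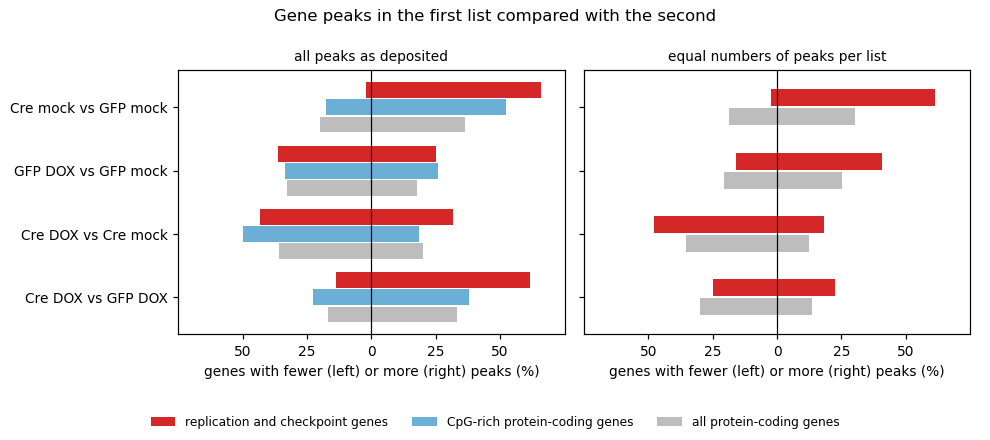
Share of genes (x axis, percent) with fewer (left of 0) or more (right of 0) gene peaks in the first list than in the second, for the 4 comparisons (y axis), with all peaks (left) and with each list cut to its 60219 top peaks by score (right, without the CpG-rich genes); red is the 44 replication and checkpoint genes, blue the CpG-rich and grey all protein-coding genes. More peaks in Cre mock than in GFP mock were found for 65.9% of the 44 with all peaks and 61.4% with equal numbers, whereas the excess of Cre DOX over GFP DOX is absent on the right.

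Peaks of the 44 genes lay near start sites and in coding exons more often than gene peaks at large. In Cre mock the promoter share was near the background, and none of these differences was tested. Promoter peaks made up 31.4%, 41.2%, 29.5% and 37.1% of the peaks, against 25.6%, 30%, 27% and 22.5% over all genes, and peaks in coding exons made up 10%, 14.7%, 13.7% and 14.5% against 6.44%, 7.29%, 8.62% and 5.78%. Intronic peaks made up 52.9%, 36.8%, 47.5% and 42.7%, in each list fewer than over all genes. When the overlapping peaks of the 4 lists were joined, the 44 genes held 250 sites. Most of these, 179, came from 1 list alone, 39 from 2 lists, 17 from 3 and 15 from all 4, and 6 of the 15 were near a start site. Of the Cre mock peaks, 51.8% overlapped no peak of another list, against 47.9% over all genes, and 19.4% overlapped a GFP mock peak, against 29.5%. A gene with a peak in 2 libraries thus often had it at different positions.

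How predicted G4s near the gene start compared with the background depended on the definition. Within 1 kb of the gene start, 42 of the 44 genes (95.5%) held a stretch with a G4Hunter score of 1.5 or more in size, against 84.1% of all genes. With a score of 2 the share was 63.6% against 56%, and with a regular expression for 4 guanine runs 59.1% against 56%, which is near the background. A predicted G4 was present in 16 of 70, 21 of 68, 40 of 139 and 40 of 124 peaks, which is 22.9%, 30.9%, 28.8% and 32.3%, against 34.3%, 34.6%, 35.6% and 33.1% of all peaks in protein-coding genes. More than 50% of the bases were repeat-masked in 42.9%, 27.9%, 25.2% and 34.7% of the peaks of the 44 genes. GFP mock, the list with the lowest G4 share at these genes, thus also had the highest repeat share. Over all peaks in protein-coding genes the most repeat-masked list was Cre DOX, at 48.1%, against 38.9% in GFP mock. The 44 genes were above this background in GFP mock alone. Whether repeats bear on the G4 share was not tested. A head-to-head partner, a protein-coding gene starting within 1 kb upstream on the other strand, was found for 13 of the 44 genes (29.5%) against 9.44% of all genes, and peaks near such a start (Orc1, Orc6, Mcm7, Cdc45, Pole, Fen1 and Atm among them) cannot be assigned to either gene. The restriction fragment that holds the gene start, which sets how finely DRIP can place a hybrid, had a median of 1508 bp against 1528 bp.

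The wider replication machinery was described with 35 further genes, from helicase paralogs to checkpoint adaptors. A gene peak was present in 19, 18, 26 and 21 of them, and a promoter peak in 15, 15, 20 and 13, beside 55.0%, 46.0%, 60.4% and 54.1% of all genes with a gene peak and 30.8%, 25.8%, 36.7% and 27.6% with a promoter peak. Cre mock was the highest list here as it was over all genes, and Cre DOX lay below it by 5 genes rather than by 1 as in the 44. Cdc25a, encoding a phosphatase that activates cyclin-dependent kinases, Mcm9, Pold2, Rnaseh2c, encoding a subunit of RNase H2, and Pola2 had a promoter peak in all 4 lists, and Pole3, Pold3, Rnaseh2b and Dscc1 had no gene peak in any. Among the 44, the 8 genes on chromosome 5 (Orc5, Mcm7, Pole, Rfc1, Rfc2, Rfc3, Rfc5 and Chek2) had a gene peak in 7, 6, 7 and 7 cases, on a chromosome where 68.7%, 61.1%, 74.4% and 66.4% of all genes had one. Chromosomes differed in the number of peaks per Mb, for example 18.1 on chromosome 7 and 44.1 on chromosome 5 in GFP mock, and 29.5 and 45.2 in Cre DOX, and the part of this in the values of single genes was not tested.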

How the data were processed

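DRIP-seq was measured in 4 DRIP libraries, 1 per condition, and 4 input libraries without a peak list, which were not analysed here. Per the methods and labels, reads were aligned to mm10 with nf-core/chipseq 1.2.1 and peaks were called with MACS2; whether inputs served as control is not given in the sources used here. The deposited lists hold, per peak, a score, a fold ratio over background, and −log10 p-value and −log10 q-value columns, all made by the authors; the score is the −log10 q-value times 10, rounded down. The files are in broad-peak format, whereas the stated command names a narrow-peak option. Read depth is unknown, so no counting interval is given.

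Peaks were set against GENCODE M21 gene bodies and the GRCm38.p6 sequence with Python 3.11.15, numpy 2.4.6, pandas 2.3.3 and matplotlib 3.10.9. Genes were extended by 1000 bp, a promoter was 1000 bp to either side of a start site, and 1 shared bp counted as overlap. Positions were given in the order promoter, gene end, coding exon, untranslated exon and intron. Predicted G4s were 25-base windows with a G4Hunter score of at least 1.5 in size. Interval and G4 code was tested on simulated data. No test between conditions was possible with 1 library per condition. All 44 genes are named, with most detail for genes with a promoter peak in all lists or in Cre mock and not GFP mock, with a top-decile peak, with most peaks or with none. The genes and lists were chosen with earlier results of these data known. Alternatives were peak strength, list length, gene extension, promoter width, start site, repeats and G4 definition. The upstream sequence of 1 further gene among the highest-scoring promoters is not reported here.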

Additional observations from a re-analysis of the deposited data

Results flagged for a closer look

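The number of genes with a promoter peak moved in opposite directions with doxycycline: it was 1 higher in GFP DOX than in GFP mock (18 against 17 genes) and changed by -1 from Cre mock to Cre DOX (25 against 24 genes). Each direction rests on 1 library per condition, and the difference was not tested. The opposite directions depended on the setting. The counts that follow are in the order GFP mock, GFP DOX, Cre mock, Cre DOX. They were 2, 2, 2 and 2 with top-decile peaks and 20, 20, 29 and 27 with a promoter of 2 kb to either side. With the 5′-most start site they were 10, 11, 17 and 17. The opposite directions were absent in these settings. They were present with equal numbers of peaks (10, 18, 20 and 16) and with a promoter narrower than 1 kb to either side (14, 16, 23 and 22). They were also present with peaks at most 50% repeat-masked (15, 16, 25 and 22). The small net values hide exchange between genes: with doxycycline, 10 of the 44 genes had a promoter peak in GFP DOX alone of the pair and 9 in GFP mock alone (7.26% and 12.2% of all genes), and 6 had one in Cre DOX alone of the pair and 7 in Cre mock alone (6.04% and 15.1% of all genes).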

How the results depend on the processing

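Read depth, replicate spread and the lists' different thresholds in signal cannot be judged from peak lists, so differences of a few peaks between libraries have no error. No paired analysis was possible because each condition has 1 library. Of 216 recomputed values, 143 stayed within 1.5 times the reported one, 65 moved further and 8, all of them ratios of peak numbers, turned direction, and the cause was not tested. Counts of genes with more and with fewer peaks were compared singly and are not among the 8, although some pairs turned too: for GFP DOX against GFP mock, from 11 and 16 to 18 and 7 with equal numbers, 13 and 11 with the repeat limit and 3 and 2 with top-decile peaks, and for Cre DOX against Cre mock, from 14 and 19 to 6 and 3 with top-decile peaks, and for Cre DOX against GFP DOX, from 27 and 6 to 10 and 11 with equal numbers. More peaks in Cre mock than in GFP mock was the direction under every alternative run. With top-decile peaks alone, a gene peak was present in 3, 4, 6 and 7 genes and a promoter peak in 2, 2, 2 and 2 (in library order). More and fewer peaks were then counted in 6 and 3 genes for Cre mock against GFP mock, 3 and 2 for GFP DOX against GFP mock, 6 and 3 for Cre DOX against Cre mock, and more in 7 for Cre DOX against GFP DOX, and the ratio of peak numbers turned to 1.33 for GFP DOX against GFP mock and 1.5 for Cre DOX against Cre mock. With a −log10 q-value of at least 2, gene peaks were present in 16 (GFP mock), 10 (GFP DOX) and 22 (Cre DOX) genes, fewer peaks were counted in 3 genes for Cre mock against GFP mock, more in 3 for GFP DOX against GFP mock, more in 5 for Cre DOX against Cre mock, and more in 17 and fewer in 3 for Cre DOX against GFP DOX, and the ratio of peak numbers was 0.571 for GFP DOX to GFP mock and 3.42 for Cre DOX to GFP DOX. With equal numbers of peaks, 18 genes had more and 7 fewer in GFP DOX than GFP mock (ratio 1.84), 8 had more in Cre DOX than Cre mock, 10 had more and 11 fewer in Cre DOX than GFP DOX (ratio 0.882), and 10 had a promoter peak in GFP mock. Fewer peaks in Cre mock than GFP mock were counted in 3 genes with no extension, 3 with a 5 kb extension and 4 with peaks at most 50% repeat-masked; the ratio of GFP DOX to GFP mock was then 1.02 with 5 kb and 1.23 with the repeat limit. With the 5′-most start site alone, 10 genes in GFP mock and 11 in GFP DOX had a promoter peak. Predicted G4s at a score of 2 were in 8, 9, 25 and 21 peaks, and by regular expression in 7, 8, 19 and 16. Added after seeing the data, leaving out genes with a head-to-head partner gave fewer peaks in 10 (GFP DOX against GFP mock), 11 (Cre DOX against Cre mock) and 3 genes (Cre DOX against GFP DOX), and covered bases in place of peaks gave ratios of 3 for Cre mock to GFP mock, 1.47 for GFP DOX to GFP mock and 1.18 for Cre DOX to Cre mock. Leaving out Pola1 turned no ratio.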
